A study of Bos taurus with 8 samples.

Results

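The genes described here mark Müller glia and the way these cells handle glutamate: GLUL, SLC1A3, SLC1A2, VIM, GFAP, RLBP1, KCNJ10, AQP4, FABP7 and CA14. A probe was taken when the scanner files gave one of these 10 names as its gene name, which gave 31 of the 51282 probes on the array, for 9 of the 10 genes. No probe carries the name SLC1A2. The cells were primary bovine Müller glia from eyes, grown for 18 to 21 days, and RNA was read with 1 dye on 8 Agilent arrays. TAT is the transcriptional activator of HIV-1 and gp120 its envelope protein. The groups, taken from the sample titles, were 3 TAT arrays (100 ng/ml), 3 Gp120 arrays (60 ng/ml) and 2 Control arrays, all 24 h after treatment began. The treatment text is the same for every sample and names both proteins, and the extraction text speaks of astrocytes. TAT and Gp120 samples carry the letters A, B and C, and Control samples A and B. Nothing in the labels says whether a letter is an animal, a culture or a day, so p-values rest on the spread between arrays, which may be technical.

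Müller glia span the retina and are its main supporting cells. They take glutamate out of the synaptic space through the transporter SLC1A3, turn it into glutamine with glutamine synthetase (GLUL), and hand the glutamine back to neurons. They also carry potassium and water away from active neurons, through the channels KCNJ10 and AQP4, and they hold retinoids for cones with RLBP1. VIM and GFAP are their filament proteins, and GFAP is the classical sign of reactive glia. In dissociated culture Müller glia are known to lose several of these features with time.

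Values are log2 signals with the array's 75th percentile subtracted, so 0 is a bright spot and 1 unit is a factor of 2. A spot counts as detected when Agilent's software called it well above background, which held for 55.4% to 64.6% of spots per array. TAT B had the highest share and the lowest detected value (-5.77), against -4.61 on Gp120 B, so dim probes were most readily called on TAT B. A probe entered the tests when it was detected on every array of at least 1 group, which 31196 probes were and 31153 without a missing value. Of the 31 probes, 15 were detected on all 8 arrays, 8 on none, and 16 entered the tests. Of all probes 53.1% were detected on all 8 arrays. The 16 are 5 of 5 for GLUL, 2 of 2 for SLC1A3, 5 of 5 for VIM, 2 of 2 for FABP7 and 2 of 6 for AQP4. No probe of GFAP, RLBP1, KCNJ10 or CA14 entered. Detection thus parted the list: the glutamate transporter, glutamine synthetase, vimentin and the fatty acid binding protein had signal on every array, whereas the retinoid carrier, the potassium channel, the carbonic anhydrase and GFAP had little or none. Probes are named below by the base of the transcript at which their 60 letters start, as the files count it. Genome positions are those the files give, on the build their headers name (HGSC Btau_3.1). Exons and UTRs were not looked up. In bulk RNA, fewer cells of a type and less RNA per cell cannot be told apart.

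Across treatments 0 of 31153 probes (0%) passed an adjusted p of 0.05 in limma, for TAT minus Control, Gp120 minus Control and TAT minus Gp120, also with the letters as a replicate block. Unadjusted p-values under 0.05 were found for 413 probes (1.33%), 1310 (4.21%) and 1240 (3.98%), in that order, and with the block for 1291, 2317 and 3195. Accordingly 0 of the 16 probes passed in any of the 3 comparisons. Of the 16, 0 with TAT, 0 with Gp120 and 1 between the proteins had an unadjusted p under 0.05. The genes did vary between arrays, by letter. With the group in the fit, 4106 probes (13.2%) differed between letters at an adjusted p under 0.05, and 5 of the 16 did: both FABP7 probes, 1 of 2 for SLC1A3 and 2 of 5 for GLUL. The count of 4106 was 1043 to 2559 when any 1 array was left out, and 189 with the row of the slide as a block.

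**Figure D1:**
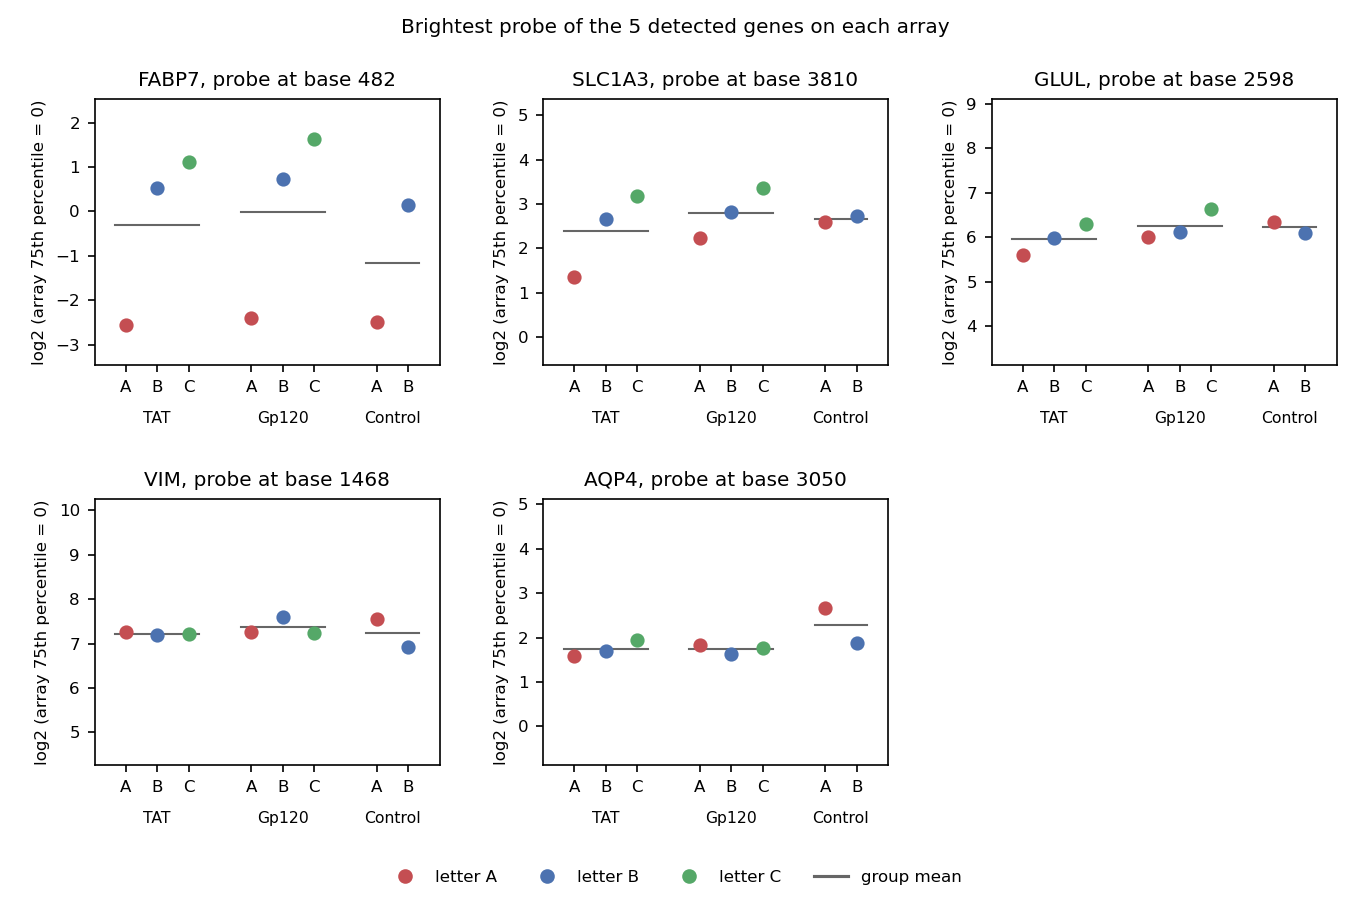
Log2 signal (array 75th percentile = 0) of the brightest probe of each detected gene on every array, TAT, Gp120 and Control from left to right, coloured by letter, with group means as lines. FABP7 is between -2.56 and -2.40 on the 3 letter A arrays and between 0.15 and 1.62 on the other 5, while VIM stays between 6.92 and 7.61; each panel spans the same number of log2 units.

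SLC1A3 (EAAT1, called GLAST in rodents) is the main glutamate transporter of Müller glia. The opening bases of its probes are shown because the probes share the order of the arrays without sharing sequence. They lie at chr20:39826984-39827043 and chr20:39826436-39826495, both on the minus strand.
SLC1A3, base 3257 (its bases 1 to 30): catgagagaaatagtagaagatgaatcggt
SLC1A3, base 3810 (its bases 1 to 30): atcacaggctctgcatatcacttgtaccca

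The base 3810 probe, the brighter of the pair, read 1.36, 2.66 and 3.18 in TAT A, B and C, 2.24, 2.82 and 3.37 in Gp120 A, B and C, and 2.60 and 2.72 in Control A and B. The base 3257 probe read -1.41, 0.85 and 1.61 with TAT, -0.78, 0.05 and 1.41 with Gp120, and -0.81 and 0.90 in Control, in the same order of letters. In both treated groups letter A was lowest and letter C highest, on both probes. Group means of the base 3810 probe were 2.40 ± 0.93 with TAT (SD, n = 3), 2.81 ± 0.56 with Gp120 (n = 3) and 2.66 ± 0.08 in Control (n = 2), and the groups overlapped. The difference of the base 3810 probe was -0.26 for TAT minus Control (SE 0.54, 95% interval -1.51 to 0.98) and 0.15 for Gp120 minus Control (SE 0.54, interval -1.10 to 1.39). Both intervals allow a loss of more than 1 log2 unit, and the Gp120 interval also a gain of more than 1. With the letters as a replicate block the differences were -0.60 for TAT and -0.19 for Gp120 (SE 0.29 each), and neither passed. Within letters the base 3810 probe differed by -1.24 between TAT A and Control A and by -0.06 between TAT B and Control B. TAT A, with the lowest SLC1A3 value of all, sets that first pair apart.

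Between letters, the base 3257 probe of SLC1A3 was lower in A than in B by 1.60 on the log2 scale (-1.60, SE 0.28, limma adjusted p = 0.0197) and lower in A than in C (-2.63, SE 0.32, adjusted p = 0.00695). The base 3810 probe was lower in A than in C (-1.33, SE 0.29, adjusted p = 0.0326), while A minus B was -0.67 (SE 0.25, adjusted p = 0.135). Over all probes, 5.91% were called lower and 5.56% higher in A than in B, and 6.77% lower and 7.13% higher in A than in C. Of the 16 probes, several of which read the same RNA, 4 were called lower in A than in B, 6 lower in A than in C, and 0 higher in either. Between B and C 0 of the 16 were called, against 0.751% higher and 0.26% lower of all probes. The base 3810 call was lost without TAT A (-0.97, adjusted p = 0.0897), TAT C, Gp120 A, Gp120 B or Gp120 C, where it ran from -1.50 to -1.17. The A minus B call of the base 3257 probe was lost without TAT A (-1.32, adjusted p = 0.053), TAT B (-1.35) or either Control array (-1.54), and its A minus C call without TAT C (-2.57) or Gp120 C (-2.69). The letters also fall on different rows of the slide: row 1 holds the 3 letter A arrays and Control B, and row 2 the other 4. Blocking on the slide row took the SLC1A3 calls away, with A minus C at -2.77 (adjusted p = 0.117) on the base 3257 probe and at -0.65 (adjusted p = 0.46) on the base 3810 probe. Without the filter on dim probes the base 3810 call was lost too (adjusted p = 0.0822), while both base 3257 calls passed (adjusted p = 0.0474 for A minus B and 0.0209 for A minus C). Control A and Control B, which share row 1, read -0.81 and 0.90 on the base 3257 probe but 2.60 and 2.72 on the base 3810 probe. Letter and row largely coincide, and the part of each in these differences was not tested.

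GLUL makes glutamine from glutamate and ammonia, and in the retina it is held to be an enzyme of Müller glia. Its 5 probes lie on the minus strand of chromosome 16, from chr16:61002161-61002220 (base 2598) up to the base 451 probe, whose 60 letters span 2838 genome bases, chr16:61005421-61008258, and so cross an intron. The base 942 probe (chr16:61003818-61003877) is printed whole, as the GLUL probe that differed most between letters.
GLUL, base 942: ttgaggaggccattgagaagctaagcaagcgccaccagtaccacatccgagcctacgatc

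The base 2598 probe, the brightest of GLUL, read 5.60, 5.99 and 6.29 in TAT A, B and C, 6.0, 6.13 and 6.63 in Gp120 A, B and C, and 6.35 and 6.10 in Control A and B. TAT A was the lowest and Gp120 C the highest array, and the groups overlapped. Its mean was 5.96 ± 0.35 with TAT, 6.25 ± 0.33 with Gp120 and 6.22 ± 0.18 in Control. TAT minus Control was -0.26 (SE 0.30, 95% interval -0.95 to 0.42) and Gp120 minus Control 0.03 (SE 0.30, interval -0.66 to 0.71). All 5 GLUL probes had a TAT minus Control difference below 0, from -0.28 to -0.06, and none passed. With the letters as a replicate block these differences were -0.57 to -0.37, also not past the threshold. Each of the 5 probes was lower in TAT A than in Control A and lower in TAT B than in Control B. Of all probes, 28.6% were lower with TAT in both such pairs, and of the 16 probes 8 were. The 5 probes read the same RNA, so they do not repeat the comparison.

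With Gp120 the 5 GLUL probes went in both directions, from -0.26 (base 1247) to 0.49 (base 2047, SE 0.30). On the base 2047 probe, TAT A, B and C read 2.76, 2.43 and 3.33, Gp120 A, B and C 3.35, 3.54 and 3.70, and Control A and B 3.12 and 2.95. All TAT arrays lay below all Gp120 arrays, as they did on 4.6% of all probes. TAT minus Gp120 was -0.69 (SE 0.27, unadjusted p = 0.0316, limma adjusted p = 1), the only unadjusted p under 0.05 among the 16 probes. The other 4 GLUL probes had TAT minus Gp120 differences of -0.29 to -0.02, with overlapping arrays.

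On all 5 GLUL probes letter A was below letter C, and on 3 of the 5 it was below letter B. The base 942 probe read -0.73 ± 0.26 in letter A (SD, n = 3), -0.30 ± 0.25 in letter B (n = 3) and 0.43 ± 0.17 in letter C (n = 2). A minus C was -1.25 on it (SE 0.21, limma adjusted p = 0.0158) and -1.02 on the base 1247 probe (SE 0.21, adjusted p = 0.0272). The other 3 probes had A minus C differences of -0.58 to -0.45, not past the threshold, and A minus B was called for none of the 5. Both calls were lost when TAT A was left out (-1.18, adjusted p = 0.063, and -0.90, adjusted p = 0.102), and likewise when TAT C (-1.22 and -1.12) or Gp120 C (-1.27 and -0.91) was. The base 1247 call was also lost without Gp120 A (-1.09). Blocking on the slide row ended both as well (-1.51, adjusted p = 0.127, and -0.91, adjusted p = 0.27), and so did a fit without the filter on dim probes (adjusted p = 0.0502 and 0.0797). Letter C has 2 arrays, neither of them a Control.

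SLC1A2 (EAAT2, GLT-1 in rodents) is the main glutamate transporter of astrocytes and in the retina is known from cones and bipolar cells. It has 4 probes by the transcripts they were designed on, outside the rule, with no gene name in the files. Of these, 2 were detected on 1 array, TAT B, at -4.49 and -4.88, and 2 on none. On the other 7 arrays the first of these read -7.53 to -5.51 and the second -6.82 to -5.77, not well above background.

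VIM, the intermediate filament protein of Müller glia and of mesenchymal cells, had a spread over arrays at or below that of the median probe. Its 5 probes lie on the plus strand of chromosome 13, from chr13:31476555-31476614 (base 404) to chr13:31483813-31483872 (base 1581). The base 1468 probe spans 880 genome bases, chr13:31482880-31483759, and so crosses an intron. It read 7.26, 7.19 and 7.22 in TAT A, B and C, 7.25, 7.61 and 7.24 in Gp120 A, B and C, and 7.56 and 6.92 in Control A and B. No group stood apart, since the 2 Control arrays were the widest spread of the 3 groups. TAT minus Control was -0.01 (SE 0.26, 95% interval -0.61 to 0.58) and Gp120 minus Control 0.13 (SE 0.26, interval -0.47 to 0.72). The SD of VIM over the 8 arrays was 0.19 to 0.35 by probe, and 10.5% to 46.4% of tested probes had a lower one. Between letters the 5 VIM probes differed by -0.10 to 0.15 (A minus B) and by -0.02 to 0.23 (A minus C), with F test adjusted p-values of 0.714 to 0.923.

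The base 467 probe was the VIM probe with the largest Gp120 difference. It read 5.12, 4.88 and 4.83 in TAT A, B and C, 5.07, 5.70 and 5.48 in Gp120 A, B and C, and 4.98 and 4.90 in Control A and B. All Gp120 arrays lay above both Control arrays, which was so for 7.92% of all probes, and Gp120 A lay below TAT A. Gp120 minus Control was 0.48 (SE 0.25, 95% interval -0.10 to 1.06, limma adjusted p = 0.964). Gp120 A exceeded Control A by 0.10 and Gp120 B exceeded Control B by 0.80. By the headers' scan times, Gp120 B and C were scanned apart from the other 6 arrays, among which Gp120 A alone stands for Gp120.

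The letters of the base 467 probe (chr13:31476618-31476677) are printed beside those of a probe for desmin (DES), the filament protein of muscle, at chr2:111753764-111753823. Capitals mark the 44 of 60 bases that lie in stretches of at least 16 shared between them.
VIM, base 467: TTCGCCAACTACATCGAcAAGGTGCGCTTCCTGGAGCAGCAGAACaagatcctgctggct
DES, base 405: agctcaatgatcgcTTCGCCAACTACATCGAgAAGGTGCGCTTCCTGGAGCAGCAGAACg

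The DES probe read 4.91, 4.77 and 4.72 in TAT A, B and C, 4.99, 5.50 and 5.34 in Gp120 A, B and C, and 4.92 and 4.82 in Control A and B. On no array did it differ from the VIM probe by more than 0.213. The other 3 DES probes share no such stretch with it and were detected on 7, 1 and 0 arrays, with values between -7.91 and -2.94. What part of the base 405 signal is desmin RNA was not tested. This probe is also the one that stands for DES among the pericyte and filament genes below.

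**Figure D2:**
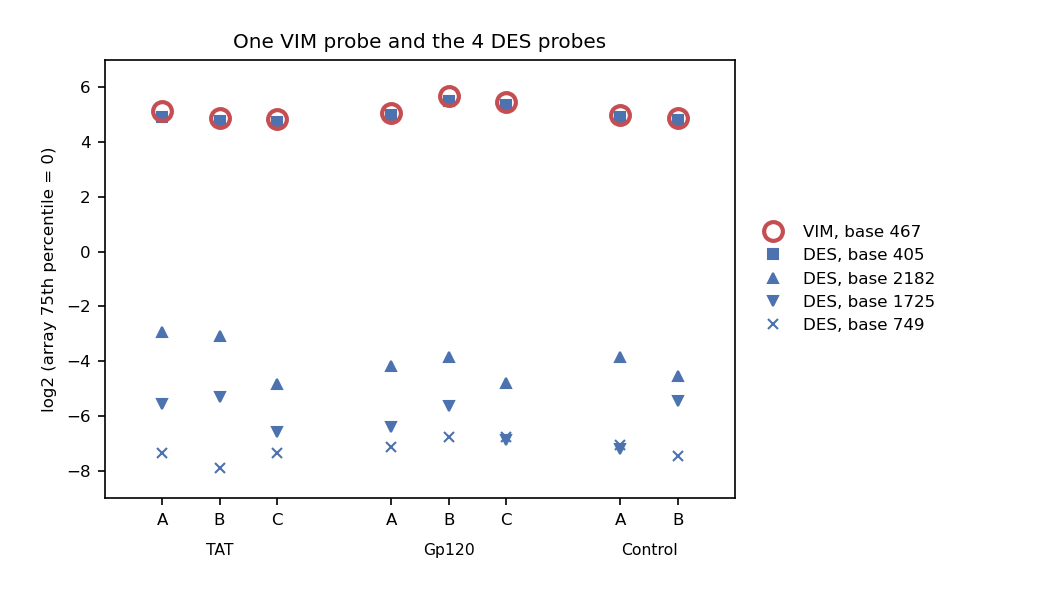
Log2 signal (array 75th percentile = 0) of the VIM base 467 probe (open circles) and the 4 DES probes (filled marks and crosses) on each TAT, Gp120 and Control array. The DES base 405 probe falls on or inside the VIM circle on every array, and the other 3 DES probes lie between -7.91 and -2.94.

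GFAP, which reactive Müller glia and astrocytes make in quantity, was barely seen. Its probe at base 1176 was detected on 1 array, Gp120 B, at -3.58. It read -7.38 to -7.24 in TAT, -7.16 and -6.66 in the other two Gp120 arrays, and -7.34 and -7.03 in Control, all not well above background. The base 2766 probe was detected on TAT B (-2.77) and Control B (-4.37) and not on Gp120 B (-5.06), the letter A arrays (-7.22 to -6.54) or the letter C arrays (-5.37 and -5.36). On that probe the letter B mean lay 2.12-fold above background in letter A and 1.96-fold above background in letter C, with 2 of 3 letter B arrays detected. That mean takes in the undetected Gp120 B, so these folds are not lower bounds. An "at least" fold, given below where all bright arrays were detected, sets their mean against background in the dim ones. The 2 GFAP probes thus differed in detection on the 3 letter B arrays, and both were undetected on the other 5.

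AQP4, the water channel of Müller glial endfeet, has 6 probes along 1 transcript on the plus strand of chromosome 24, and they did not tell the same story. The base 3050 probe was detected on all 8 arrays. Of the other 5, the base 5616 probe was detected on 5 arrays, base 1169 on 6, base 843 on 3, base 5090 on 2 and base 3959 on 0. The 3 probes printed are the one seen everywhere, the probe at base 843, nearest to its start, and the probe nearest to the end of the transcript. Capitals mark a stretch discussed below.
AQP4, base 3050 (its bases 31 to 60): agggtCTTCCCTGGTGGctcagatgataaa
AQP4, base 843: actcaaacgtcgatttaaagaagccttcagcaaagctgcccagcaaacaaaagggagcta
AQP4, base 5616 (its bases 1 to 30): aaagtgttagcactgtggttgatttccatg

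The base 3050 probe (chr24:30857450-30857509) read 1.59, 1.70 and 1.95 in TAT A, B and C, 1.83, 1.62 and 1.77 in Gp120 A, B and C, and 2.67 and 1.88 in Control A and B. Control A was the highest array, and the other 7 lay within 0.36 of each other. TAT minus Control was -0.53 (SE 0.28, 95% interval -1.18 to 0.12) and Gp120 minus Control -0.53 (SE 0.28, interval -1.18 to 0.11), and neither passed. These comparisons share the Control arrays, Control A with them. Both Control arrays lay above all Gp120 arrays, as on 7.67% of all probes, but Control B lay below TAT C. No letter difference was called on this probe (F test adjusted p = 0.499).

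The base 5616 probe (chr24:30860021-30860080) read -5.11, -1.58 and -2.19 in TAT A, B and C, -5.23, -2.47 and -3.30 in Gp120 A, B and C, and -5.22 and -1.68 in Control A and B. It was detected on every letter B and C array and on no letter A array. Letter B was at least 9.37-fold higher than letter A on it, and letter C at least 5.24-fold higher. It was not among the tested probes, since no treatment group had it on every array. In a fit without the filter on dim probes, chosen as an alternative, A minus B was -3.28 (limma adjusted p = 0.00603) and A minus C -2.49 (adjusted p = 0.0167), both set against signal at background.

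The base 1169 probe (chr24:30855574-30855633) read -4.92, -2.55 and -2.90 with TAT, -4.80, -4.29 and -3.99 with Gp120, and -5.40 and -2.68 in Control, by letter. It entered the tests through the TAT arrays alone, the 1 group with all arrays detected. A minus B was -1.87 (SE 0.41, adjusted p = 0.0372) and A minus C -1.63 (SE 0.48, adjusted p = 0.071). With normexp background correction A minus B was -0.16 (adjusted p = 0.428), and without either Control array it was -1.44 (adjusted p = 0.139). The call was also lost without the filter on dim probes (adjusted p = 0.0791) and without any 1 TAT array or Gp120 C (-1.87 to -1.63). The base 843 and base 5090 probes were detected on TAT B and Control B, base 843 also on TAT C. On them the letter B mean lay 2.07-fold and 2.24-fold above background in letter A, in that order. Both means take in the undetected Gp120 B, so these folds are not lower bounds. So 4 of the 6 probes had their highest mean in letter B and letter A at or near background, 1 was not detected anywhere, and the base 3050 probe showed neither pattern. On the base 1169 probe Gp120 B (-4.29) lay below Gp120 C (-3.99).

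The letters CTTCCCTGGTGG of the base 3050 probe, searched on both strands, occur in 8 of the 51282 probes (0.0156%). As background, they match the start of a short interspersed repeat that is common in ruminant genomes. Of these 8 probes 7, the base 3050 probe that prompted the search among them, were detected on all 8 arrays, against 53.1% of all probes. The search followed from this probe's values, and what RNA gave its signal was not tested.

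**Figure D3:**
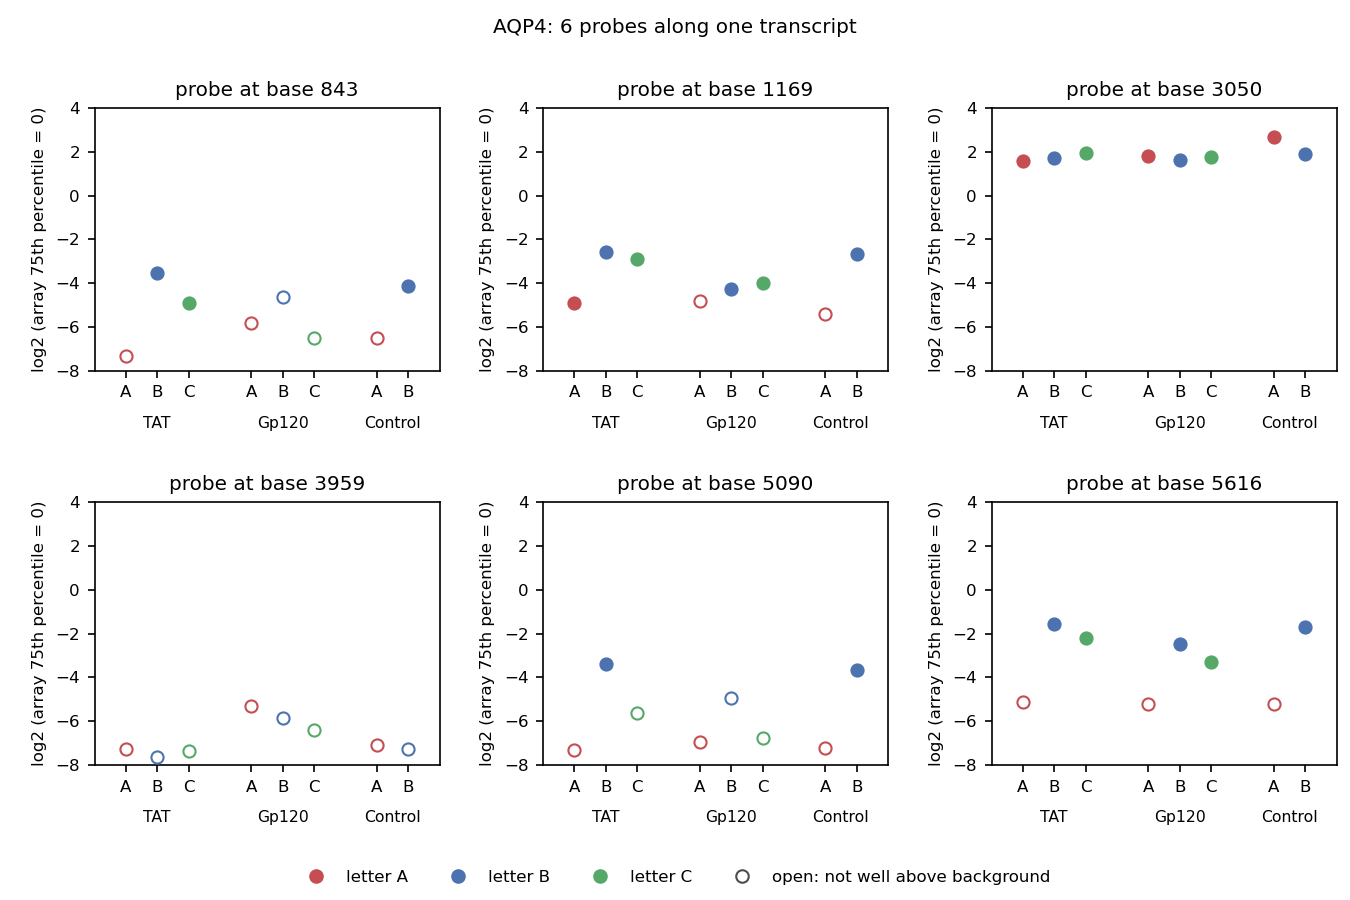
Log2 signal (array 75th percentile = 0) of the 6 AQP4 probes in transcript order on each TAT, Gp120 and Control array, coloured by letter, with open marks where the spot was not well above background. The base 3050 probe sits between 1.59 and 2.67 on all arrays, while the base 5616 probe sits at -5.23 to -5.11 on the letter A arrays and at -3.30 to -1.58 on the others.

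KCNJ10 (Kir4.1), the main potassium channel of Müller glia in the living retina, has 4 probes on chromosome 3. The base 3503 probe was detected on 1 array, Gp120 C, at -4.44, and the other 3 on none, with values of -7.84 to -5.67. The base 3503 probe read -7.29 to -6.15 in TAT, -6.29 and -6.23 in the other two Gp120 arrays, and -7.49 and -5.87 in Control. CA14, a membrane carbonic anhydrase of Müller glia that buffers acid, has 2 probes, also on chromosome 3, detected on no array (-7.87 to -5.24). Potassium channel and carbonic anhydrase thus gave no signal that could be compared between groups. A spot not well above background shows no absence, only that the level was not measurable on these arrays.

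FABP7, the brain fatty acid binding protein, is made by radial glia, by retinal progenitors and by glia that divide. It was the listed gene with the widest spread. Its probes lie on the minus strand of chromosome 9, at chr9:29657003-29657062 and chr9:29656889-29656948, and their opening bases are given because the 2 probes repeat the pattern with different sequence.
FABP7, base 482 (its bases 1 to 30): tgagaaggcatagaaaacatcctgacctgg
FABP7, base 596 (its bases 1 to 30): ggttatcttggtgtggaggtggaaaatgat

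The base 482 probe read -2.56, 0.52 and 1.11 in TAT A, B and C, -2.40, 0.73 and 1.62 in Gp120 A, B and C, and -2.49 and 0.15 in Control A and B. The base 596 probe read -2.94, 0.61 and 1.27 with TAT, -2.41, 0.64 and 1.57 with Gp120, and -2.76 and 0.17 in Control. In every group letter A was far below the rest, and in both treated groups C was above B. Over the 8 arrays the SD was 1.77 and 1.90, and 99.4% and 99.5% of tested probes had a lower one. The median SD of all tested probes was 0.37.

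Letter A averaged -2.48 ± 0.08 on the base 482 probe (SD, n = 3), letter B 0.46 ± 0.29 (n = 3) and letter C 1.37 ± 0.36 (n = 2). A minus B was -2.95 (SE 0.18, limma adjusted p = 0.00162) and A minus C -3.77 (SE 0.21, adjusted p = 0.000888). B minus C, at -0.82, did not pass (adjusted p = 0.157). The base 596 probe gave -3.18 and -4.04 for A minus B and A minus C, both called. With normexp background correction A minus B was smaller, -1.70, and still called (adjusted p = 0.000471). Blocking on the slide row gave -2.64 for A minus B, no longer past the threshold (adjusted p = 0.0629), and likewise -3.38 for A minus C (adjusted p = 0.0508). Row 1 holds the 3 letter A arrays and Control B, which read 0.15. No letter A array lies on row 2, so letter and row largely coincide, and the part of each was not tested.

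**Figure D4:**
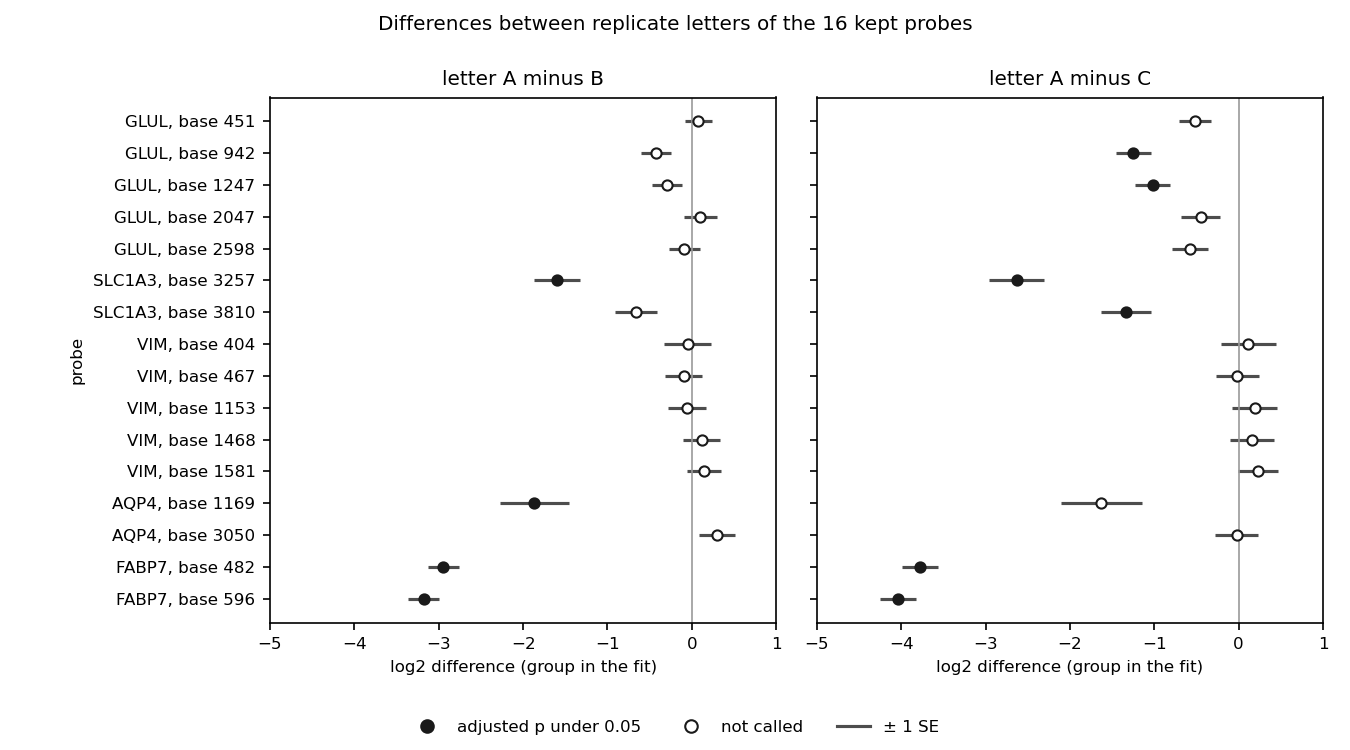
Log2 differences between replicate letters, A minus B (left) and A minus C (right), of the 16 tested probes, with 1 standard error on each side and the group in the fit. Filled marks have an adjusted p under 0.05: 4 probes for A minus B and 6 for A minus C, all below 0, while the 5 VIM probes lie within 0.23 of 0.

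Between treatments FABP7 gave no call. TAT minus Control was 0.86 on the base 482 probe (SE 1.48, 95% interval -2.55 to 4.27) and Gp120 minus Control 1.15 (SE 1.48, interval -2.26 to 4.57). Letter C, high in both treated groups, has no Control. With the letters as a replicate block the differences were 0.10 (SE 0.21) and 0.39 (SE 0.21). Within letters, TAT minus Control was -0.07 in A and 0.37 in B, and Gp120 minus Control 0.09 in A and 0.58 in B. The same-letter differences were thus a small part of the letter differences.

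By the root mean square difference of centred log2 profiles over 8 arrays, the genes most like FABP7 among 11986 were SVOP (0.425), ASPM (0.480) and SGCA (0.481). ASPM is a spindle protein of dividing cells, SVOP a relative of a synaptic vesicle protein and SGCA a sarcoglycan of muscle. SVOP read -5.14 in Control A, below the lowest detected spot of that array (-5.08). In TAT A and Gp120 A it read -4.91 and -5.21, near background. ASPM read -3.51, -1.83 and -1.06 in TAT A, B and C, -4.76, -0.79 and -0.83 in Gp120, and -4.30 and -1.82 in Control. The points share arrays and letters, and the likeness is a description.

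RLBP1 (CRALBP), which binds 11-cis retinoids and is a standard marker of Müller glia, has 3 probes on the minus strand of chromosome 21. The base 1232 probe was detected on 2 arrays, Control A (-3.92) and TAT B (-5.06). It read -5.65 and -5.39 in the other two TAT arrays, -6.10, -5.10 and -5.24 in Gp120 A, B and C, and -5.02 in Control B. The base 760 and base 1450 probes were detected on no array (-7.57 to -5.42). Neither a treatment nor a letter had RLBP1 detected on all its arrays.

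For TAT minus Control 1 of the 16 tested probes (AQP4, base 1169, which entered through the TAT arrays alone) was higher and 8 were lower in both same-letter pairs, against 20.4% and 28.6% of all probes. The 8 are all probes of GLUL and SLC1A3, and AQP4 base 3050. Probes of a gene read the same RNA, so none of these counts is a count of separate genes. For Gp120 minus Control 4 were higher and 3 lower, against 24.6% and 24.7%. Arrays of TAT and Control overlapped for all 16, while of all probes 5.47% had every TAT array above and 8.66% every TAT array below Control. Arrays of Gp120 and Control did not overlap for 3 of the 16, with VIM base 467 and GLUL base 2047 higher and AQP4 base 3050 lower, against 7.92% and 7.67% of all probes. With the replicate block 1 probe, GLUL base 1247, had an unadjusted p under 0.05 in each comparison with Control. Its blocked differences were -0.57 for TAT and -0.55 for Gp120 (SE 0.21 each), against 4.14% and 7.44% of all probes under that p. Between the proteins 1 of the 16 did with the block, GLUL base 2047, against 10.3%. TAT was lower than Gp120 in every same-letter pair on 6 of the 16 probes and higher on 0, against 20.4% and 13.5%, and the arrays did not overlap for 1 of the 16, lower with TAT, against 4.6% lower and 3.33% higher. For letters, all arrays of A lay below all of B and C on 6 of the 16 probes, of FABP7, SLC1A3, GLUL and AQP4, against 13.2% of all probes. Above all of B and C they lay on 0 of the 16, against 13%. Letter A below B below C, with no overlap, was found on 5 of the 16, against 3.25%. The 5 are the FABP7 and SLC1A3 probes and GLUL base 942.

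**Figure D5:**
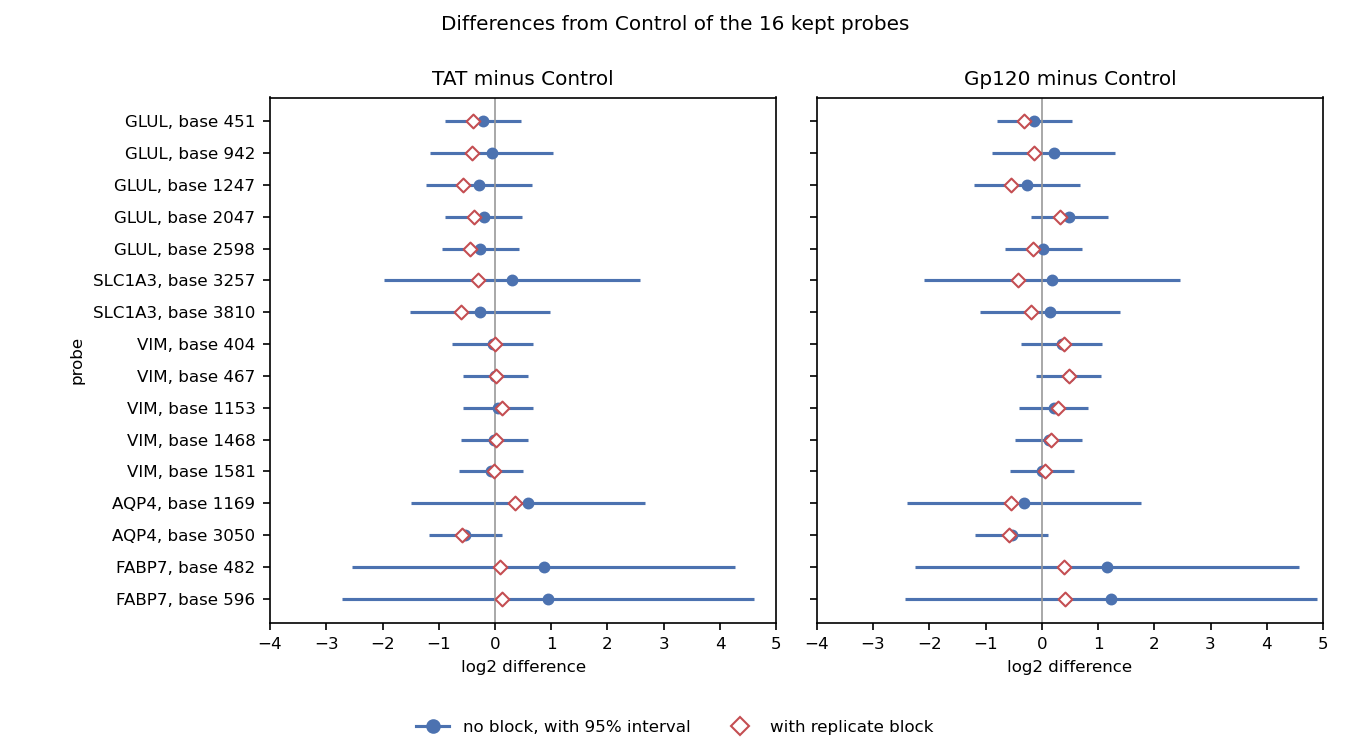
Log2 differences from Control of the 16 tested probes, TAT minus Control (left) and Gp120 minus Control (right), with 95% intervals (circles) and, as diamonds, the values with the letters as a replicate block. Every interval crosses 0, and the FABP7 intervals, from -2.72 to 4.60 and from -2.43 to 4.89 on the base 596 probe, are the widest.

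Other genes of the same functions were taken from lists. In the 3 treatment comparisons 0 genes passed in any of the 13 lists, as 0 of all 11991 named genes did (0%). Between letters, 14% of all named genes passed the F test by their brightest probe. Of 16 tested genes of glutamate and glutamine handling 4 did, among them GOT1, which makes aspartate from glutamate, lower in A than in B by 0.89 (-0.89, SE 0.16, adjusted p of this difference 0.0201). GLS2, a glutaminase, was also lower in A (-1.98, SE 0.35, adjusted p = 0.0206), with Gp120 A (-5.65) not well above background. SLC38A1, a glutamine transporter, was higher in A than in C (1.86, SE 0.29, adjusted p = 0.0135), while its A minus B of 0.85 was not called (adjusted p = 0.0762). Its value in Gp120 C, -5.77, was not well above background. The median TAT minus Control difference of these 16 genes was -0.10, against -0.03 for all named genes. The smallest p among them belonged to SLC38A2, another glutamine transporter, at -0.36 (SE 0.20, adjusted p = 1).

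Of 17 genes for potassium, water, acid and lactate handling 5 passed between letters. The lactate exporter SLC16A3 was higher in A than in B (2.52, SE 0.25, adjusted p = 0.00441), the inward rectifier KCNJ2 too (1.79, SE 0.37, adjusted p = 0.0321), and the carbonic anhydrase CA4 was lower (-2.41, SE 0.25, adjusted p = 0.00466). For CA4, letter A read -3.50 to -3.07 and letters B and C -1.10 to -0.41. CA2, the carbonic anhydrase of the cytosol, had Gp120 minus Control at -0.75 (SE 0.38, adjusted p = 0.964).

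Of 13 tested filament and gliosis genes 1 passed between letters, CEBPD, a transcription factor of inflammation, higher in A than in B (0.81, SE 0.17, adjusted p = 0.0339). SYNM, a filament protein that joins vimentin, had a TAT minus Control difference of 1.23 (SE 0.55, adjusted p = 1). It was detected on 4 arrays and entered the tests through the TAT arrays alone. Control A, at -6.53, was not well above background. Of 12 retinoid and fatty acid binding genes 3 passed. RBP4, the retinol carrier of blood, was higher in A than in B (1.76, SE 0.19, adjusted p = 0.00506), and so was CRABP2, which carries retinoic acid (1.26, SE 0.27, adjusted p = 0.0366). FABP3, the heart fatty acid binding protein, was lower in A like FABP7 (-0.97, SE 0.22, adjusted p = 0.0416).

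Of 14 listed transcription factors of glial development and their partners, 12 are named on the array and 10 were tested, of which 3 passed. ID1, an inhibitor of differentiation, was lower in A than in B (-1.80, SE 0.24, adjusted p = 0.00958), as were NFIA (-1.09, SE 0.18, adjusted p = 0.0179) and PAX6 (-2.57, SE 0.60, adjusted p = 0.0426). PAX6, which Müller glia share with progenitors, read -4.17, -2.28 and -0.62 in TAT, -4.52, -0.04 and -0.83 in Gp120 and -3.92 and -2.59 in Control, by letter. Of the other markers of Müller glia, 17 of 19 on the array were detected on all 8 arrays by their brightest probe, against 53.1% of all probes. Of these 19, 3 passed between letters, with CRYAB, a small heat shock protein, lower in A than in B (-1.51, SE 0.25, adjusted p = 0.0175), and so was TRPM3 (-1.83, adjusted p = 0.0272). PDPN was the other, with B highest: A minus B was -0.72, A minus C 0.59 and B minus C 1.32, none called on its own (adjusted p = 0.0709, 0.145 and 0.0756). SPARCL1, a matrix protein of glia, had a TAT minus Control difference of 1.14 (SE 0.44, adjusted p = 1).

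The label was checked against other cells. Of 10 markers of microglia and macrophages 9 were detected on all 8 arrays, of 10 for fibroblasts 9, of 9 for pericytes and smooth muscle 9, of 7 for endothelium 5 and of 10 for astrocytes 5. Of 12 for photoreceptors and neurons on the array 4 were. Of the pigment epithelium, 5 of 10 were, with TYR and TYRP1 detected on none. Of all probes 53.1% were detected on all 8 arrays. The list counts take the brightest probe of each gene, which favours detection, and they do not measure how much of a cell type is present. Among glial markers, RLBP1, KCNJ10, CA14 and GFAP were at or near background, as above, while VIM, GLUL and SLC1A3 had signal throughout. The arrays thus hold signal of several glial genes and of markers of other cells.

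The levels of these other lists also differed between letters. The mean log2 level of the 9 pericyte and smooth muscle genes was 1.85 to 2.70 on letter A arrays, 3.62 to 3.92 on B and 3.0 to 3.22 on C. Of the 9, 5 passed between letters, led by MYH11, a smooth muscle myosin (A minus B -3.75, SE 0.18, adjusted p = 0.00112). The astrocyte list averaged -0.13 to 0.34 on A, 0.58 to 0.84 on B and 0.72 to 0.98 on C. Of its 6 tested genes 1 passed between letters. Microglia genes averaged 3.51 to 4.03 on A, 3.16 to 3.68 on B and 3.56 to 3.68 on C, and 0 of 10 passed. Of the fibroblast, pigment epithelium, endothelium, and photoreceptor and neuron lists 1 of 9, 2 of 6, 1 of 5 and 1 of 5 passed, against 14% of all named genes. The part of these cells in the FABP7 and SLC1A3 differences was not tested.

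Beside the treatments, the fibroblast list averaged 2.68 to 3.60 with TAT, 2.44 to 2.79 with Gp120 and 2.31 to 2.32 in Control. The 3.60 was TAT A, and TAT B (2.68) lay below Gp120 C (2.79). All 9 genes had a TAT minus Control difference above 0, with a median of 0.82, while 45% of all named genes were above 0. For Gp120 minus Control 8 of the 9 were above 0, with a median of 0.23, and for TAT minus Gp120 all 9, with a median of 0.45. Of the 9 pericyte and smooth muscle genes 8 were above 0 with each protein against Control. COL1A1, a collagen chain, differed by 0.93 (SE 0.29, adjusted p = 1). The list was chosen with earlier results of these arrays known, and its part in the GLUL values was not tested.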

How the data were processed

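Per the file headers, the authors obtained linear intensity values from the scans by Agilent Feature Extraction 11.5.1.1, and the processed signal used here is background-subtracted. The deposited value table, whose values are log2 and listed by gene name, served as an alternative; how it was made is not stated in its header. Control spots and outlier spots (4 to 37 of 61657 per array) were left out, and 0 spots were saturated. Processed signals were log2 transformed, each array's 75th percentile was subtracted, and spots of a probe were averaged. Per probe, limma 3.58.1 in R 4.3.3 (lmFit, eBayes, Benjamini-Hochberg over 31153 probes, two-sided) compared groups in 1 fit without a block, and letters with the group in the fit. Letters were taken to pair samples, because deviations from group means correlated at 0.33 to 0.71 in every same-letter pair and at -0.60 to 0.41 otherwise. Centring within such small groups lowers the correlation of unlike letters, and the deviations of the 2 Control arrays mirror each other. Control B correlated at 0.41 with TAT C and 0.37 with Gp120 C, against 0.33 with TAT B and 0.33 with Gp120 B. That Control B pairs with letter B was therefore assumed and not shown by these values. No 2 arrays of a group held identical values. Lists use the brightest probe of a gene. All members were named, with every probe, and of each list the 3 smallest p-values. Some results are not reported here. The members and lists were chosen with earlier results of these data known. The pipeline was tested on simulated data. The number of arrays limits the precision.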

Additional observations from a re-analysis of the deposited data

Results flagged for a closer look

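A pair of probes designed on SLC1A2 transcripts, which carry no gene name in the files and enter no comparison of the report, gave a signal well above background on 1 array, TAT B, at -4.49 (base 1745) and at -4.88 (base 1710). On both Control arrays these probes were not well above background. TAT B was also the array with the most detected spots (64.6%) and the lowest detected value, -5.77, against -5.08 in Control A and -5.51 in Control B. Groups of 2 or 3 arrays were too small for a test of single arrays that stand apart.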

How the results depend on the processing

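Of the values and counts recomputed under the alternatives, every change of sign was of a difference that was not called. The brightest probe of each gene is meant throughout. With the letters as a replicate block, TAT minus Control of VIM was 0.017, and Gp120 minus Control was -0.15 for GLUL and -0.19 for SLC1A3. The block left the counts of treatment calls at 0. With the replicate block and the scan as a block, TAT minus Control of VIM was 0.058, TAT minus Gp120 of VIM 0.19, and Gp120 minus Control -0.19 for GLUL, -0.053 for SLC1A3 and -0.13 for VIM. TAT minus Control of VIM was also above 0 with normexp (0.14), with quantile normalization (0.00017), with the percentile over detected probes (0.017), in the deposited table (0.056) and on row 1 alone (0.020). Quantile normalization gave -0.021 for Gp120 minus Control of GLUL. A minus C of AQP4 was 0.0054 with the percentile over detected probes, 1.59 in the deposited table and 0.60 with the slide row as a block.

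Slide row as a block gave -1.45 for TAT minus Control of FABP7, -0.28, -0.66 and -1.16 for Gp120 minus Control of GLUL, SLC1A3 and FABP7 in that order, and 0.25 for A minus B of GLUL. On row 1 alone TAT minus Control of FABP7 was -1.39, and TAT minus Gp120 was 0.0091 for VIM and -0.24 for AQP4. With the scan as a block, and on the arrays of scan 2 alone, Gp120 minus Control was -0.23 for GLUL, -0.42 for SLC1A3 and -1.23 for FABP7, as on row 1 alone, and TAT minus Gp120 was 0.16 for SLC1A3, -0.085 for AQP4 and 2.09 for FABP7. In the settings on scan and row 1, Gp120 is set against the others through Gp120 A. In the deposited table TAT minus Gp120 of AQP4 was -0.0038 and A minus B of VIM -0.024.

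The letters' count of 4106 of 31153 probes was 1639 with the scan as a block and 189 with the slide row as a block. Other settings tested other totals, so their counts do not compare directly with 4106. They gave 1953 of 51211 without the filter on dim probes, 2187 of 11991 with 1 probe per gene and 1590 of 18993 in the deposited table. With a filter by letter, chosen after seeing the data, the letters' count was 4778 of 31361. The deposited table gave 4 calls for TAT minus Control, 3 for Gp120 minus Control and 15 for TAT minus Gp120, of 18993 names. The cause of these changes was not tested.

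Leaving out 1 array at a time, the letters' count ran from 1043 to 2559. The count ran from 0 to 2 for TAT minus Control and from 0 to 1 for Gp120 minus Control, the higher each time without Control A, and was 0 throughout for TAT minus Gp120. TAT minus Control ran from -0.33 to 0.30 for VIM, from -0.46 to 2.18 for FABP7 and from -0.65 to 0.26 for SLC1A3. Gp120 minus Control ran from -0.16 to 2.47 for FABP7, from -0.16 to 0.15 for GLUL, from -0.19 to 0.45 for VIM and from -0.13 to 0.43 for SLC1A3. TAT minus Gp120 ran from -0.80 to 0.11 for SLC1A3, from -1.48 to 0.83 for FABP7 and from -0.095 to 0.084 for AQP4. A minus B ran from -0.15 to 0.33 for VIM and from -0.26 to 0.040 for GLUL, and A minus C from -0.15 to 0.23 for AQP4. FABP7 was called in each such fit, from -3.10 to -2.83 for A minus B and from -3.93 to -3.61 for A minus C. Signal near background limits what can be said of GFAP, RLBP1, KCNJ10, CA14, SLC1A2 and 4 of the 6 AQP4 probes.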
